A study of Arabidopsis thaliana with 8 samples.

Results

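The MIR395 precursors are the primary transcripts from which Arabidopsis makes miR395, a microRNA of sulfur nutrition. They were taken as all entries of the deposited precursor column that name a miR395, which gave 6 entries and, after an entry named miR395e was found to lie on the MIR395d locus, 5 of the 108 precursors of the series: MIR395a, MIR395b, MIR395c, MIR395d and MIR395f. Among tags of 26 nt or more, many of which start within the hairpin, these precursors were nearly absent from wild type and made up 0.915% and 0.967% of the counts in the fiery1 mutant.

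MIR395 genes are switched on when sulfate runs short. The mature miR395 directs the cleavage of mRNAs for the plastid ATP sulfurylases APS1, APS3 and APS4, which activate sulfate for assimilation, and of the mRNA for the low-affinity transporter SULTR2;1, which moves sulfate through the vasculature. Like other plant microRNAs it is cut from a hairpin by the nuclease DCL1 with the double-stranded RNA-binding protein HYL1 and the zinc-finger protein SERRATE (SE). FIERY1, also named SAL1, is a phosphatase that hydrolyses PAP, a by-product of sulfation reactions that draw on the same sulfate pool, and PAP inhibits the XRN exoribonucleases, which degrade RNA from its 5′ end.

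The series used SPARE (Specific Parallel Analysis of RNA Ends), in which an adapter is ligated to the 5′ end of cleaved RNA, cDNA is made with precursor-specific primers and the product is amplified and sequenced. By this design each tag starts at an end left by cleavage or degradation, and all tags of a library share 1 total. The 4 genotypes were wild type (Col) and the homozygous mutants labelled Fiery1 -/-, Hyl1 -/- and Se -/-, here fiery1, hyl1 and se, each with 2 libraries from seedlings aged 10 days grown in continuous light. The tissue label is whole bud of seedlings, the labels name no mutant alleles, and sulfate in the medium is not described in the sources used here. The FIERY1, HYL1 and SE transcripts, tissue markers and the mRNA targets of miR395 were not analysed here. Nothing in the labels says that the 2 libraries of a genotype came from separate plantings, so the p-values measure the spread between libraries, which may be technical.

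Depth differed widely between genotypes. Tags of 26 nt or more summed to between 25753 and 121429 counts in the wild-type, hyl1 and se libraries and to 453388 and 795030 in the fiery1 libraries. Tags of 18 to 25 nt ranged from 545 counts in a hyl1 library to 428279 in a se library. Values are given as counts and as CPM, the counts scaled to the total of the same length class in that library. A floor of 3 counts per library stands for a group with no count. Floors and intervals cover counting error only, because the reads carry no molecular identifiers, and a lower value may reflect fewer cells with the transcript or less RNA per cell, which cannot be told apart in whole seedlings.

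The hairpins are shown first because the cut positions below refer to them. Each is the RefSeq annotation of the TAIR10.1 reference, written 5′ to 3′ on the strand of the gene, and each is annotated as a non-coding RNA of a single exon. Capitals mark the 21-nt miR395 strand, which lies on the 3′ arm. The hairpins are MIR395a at chr1:9363196-9363288 on the minus strand, MIR395b at chr1:9364471-9364570 on the plus strand, MIR395c at chr1:9367080-9367179 on the plus strand, MIR395d at chr1:26269979-26270078 on the minus strand and MIR395f at chr1:26273858-26273969 on the plus strand.
MIR395a: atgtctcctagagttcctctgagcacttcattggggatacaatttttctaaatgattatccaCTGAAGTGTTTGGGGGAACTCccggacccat
MIR395b: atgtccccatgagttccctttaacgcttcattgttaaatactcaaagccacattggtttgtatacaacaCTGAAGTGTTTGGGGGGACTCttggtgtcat
MIR395c: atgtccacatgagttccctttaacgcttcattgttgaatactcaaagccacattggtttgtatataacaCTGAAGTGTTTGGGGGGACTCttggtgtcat
MIR395d: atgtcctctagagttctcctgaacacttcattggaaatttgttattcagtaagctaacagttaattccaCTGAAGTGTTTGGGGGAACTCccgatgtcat
MIR395f: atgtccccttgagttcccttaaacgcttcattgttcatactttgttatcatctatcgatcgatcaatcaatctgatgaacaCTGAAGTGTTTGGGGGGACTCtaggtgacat

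The mature strands fall into a pair of forms that share the seed, bases 2 to 8, shown here in capitals.
miR395a and miR395d: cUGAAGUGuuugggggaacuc
miR395b, miR395c and miR395f: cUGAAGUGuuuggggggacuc
Counted from the 5′ end of miR395a, the forms differ by the substitution A17G. The loci form clusters on chromosome 1, with 1182 nt between MIR395a and MIR395b and 2509 nt between MIR395b and MIR395c. MIR395d and MIR395f lie in another cluster, with 16902799 nt between MIR395c and MIR395d. A further annotated hairpin, MIR395e, lies 2697 nt from MIR395d and 987 nt from MIR395f. RNAfold placed the strand opposite miR395 at bases 13 to 33 of each hairpin. All 61 distinct MIR395 tags matched the genome exactly once and none was listed for another precursor, so counts could be assigned to single loci in spite of the similar sequences.

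Sites in known targets are shown because these mRNAs are what miR395 acts on. The best-paired stretch for miR395 lay in the coding sequence of each target, and capitals mark bases paired with the miR395a form, with G:U pairs and mismatches in lower case.
APS1: GAGTTCCtCCAAACtCTTCAt
APS4: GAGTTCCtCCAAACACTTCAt
SULTR2;1: aAGTTCtCCCAAACACTTCAa
The APS1 site lies at chr3:8113164-8113184 on the plus strand with 18 paired bases, the APS4 site at chr5:17591121-17591141 on the minus strand with 19, and the SULTR2;1 site at chr5:3193268-3193288 on the plus strand with 18. These are matches of sequence only, and no cleavage of these mRNAs was measured here.

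The first comparison set fiery1 against wild type among tags of 26 nt or more. Long tags of the MIR395 precursors were far more abundant in fiery1, by 170-fold over the 5 members together (mean CPM, exact 95% counting interval 92.4 to 355). These values count RNA ends, and the level of the transcripts was not measured. Together the members had 3 and 7 counts in the wild-type libraries and 4149 and 7689 in the fiery1 libraries. That is 55.3 ± 3.25 CPM (SD, n = 2) against 9411 ± 368 CPM. The groups did not overlap, and the fiery1 libraries lay close together next to the gap between genotypes. MIR395a and MIR395b held most of the fiery1 counts of the family, 41.8% and 42.5% for MIR395a and 46.5% and 43.4% for MIR395b in the 2 libraries.

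MIR395a had 2 and 4 counts in wild type, and the fiery1 libraries stood at 3827 and 4108 CPM (5001 counts in all), a mean of 3967 ± 199 CPM against 34.2 ± 1.71 CPM (SD, n = 2). Its ratio was 116-fold with a counting interval of 53.3 to 317. MIR395b stood at 1 and 3 counts against 1931 and 3338, or 21.2 ± 4.97 CPM against 4229 ± 42.8 CPM, a ratio of 200-fold (interval 77.9 to 733). Both precursors were thus detected in each wild-type library, but only by a handful of counts.

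MIR395c and MIR395f, which encode the same mature form as MIR395b, had 0 counts in both wild-type libraries. MIR395c had 289 and 577 counts in fiery1, which is 682 ± 62.5 CPM (SD, n = 2) and at least 17.5-fold above the mean wild-type floor of 38.9 CPM. MIR395f had 179 and 506 counts, 516 ± 171 CPM, at least 13.3-fold above that floor. The lowest ratio of 1 fiery1 library to the floor of 1 wild-type library was 7.44-fold, for MIR395f. MIR395d had 15 and 2 counts in fiery1 and none in wild type, and its 17.8 ± 21.6 CPM lay below the wild-type floor, so no difference was detectable at this depth.

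**Figure D1:**
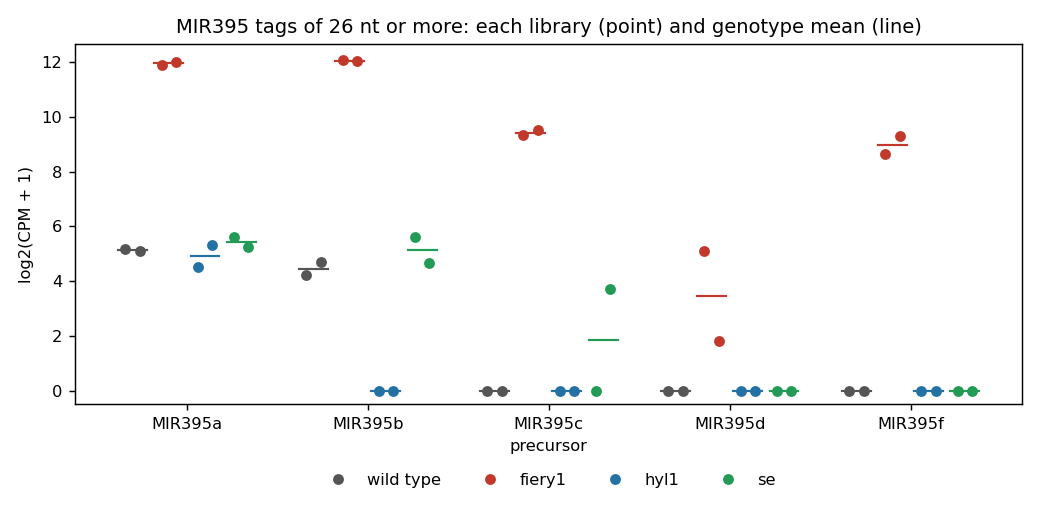
Level of each MIR395 precursor among tags of 26 nt or more, as log2(CPM + 1), in the 8 libraries (points, coloured by genotype) with a line at the genotype mean. The fiery1 points of MIR395a, MIR395b, MIR395c and MIR395f lie above those of all other libraries, and most other points of MIR395c, MIR395d and MIR395f are at 0.

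By edgeR's quasi-likelihood test with Benjamini-Hochberg adjustment over 74 precursors, 2 of the 4 members tested passed in fiery1, MIR395c (adjusted p = 0.0244) and MIR395f (adjusted p = 0.0198). MIR395a and MIR395b had log2 fold changes of 6.40 ± 2.25 and 7.12 ± 2.48 (SE) with an adjusted p = 0.0780 each and did not pass. Over all precursors 13.5% were called higher and 6.76% lower, 20.3% in either direction. MIR395d was removed by the filter on low counts. All 4 members tested passed that filter only through their fiery1 counts, so the calls lend no support to a difference beyond the counts themselves. Without the filter no member was called by edgeR, with an adjusted p of 0.119 for MIR395c and 0.120 for MIR395f (unadjusted 0.0158 and 0.0233). As a description, the median log2 fold change was 8.38 over the 4 tested members and 1.34 over all precursors tested, and the members' values are read against the latter. The filter kept the 4 through their fiery1 counts and removed MIR395d, so a high median was set in part by that selection. With library totals in place of TMM factors the median of all precursors rose by a further 0.57 and the members kept their signs.

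Both calls depended on each of the 4 libraries. No MIR395 precursor was called once any 1 of the 4 libraries was left out, wild-type or fiery1, with adjusted p between 0.1007 and 0.4535 over the 4 members and the 4 fits, while the log2 fold changes ranged from 6.26 to 10.21. With only the 4 libraries of the 2 genotypes in the model all 4 members passed, beside 40 of all 77 precursors tested. DESeq2 called MIR395a and MIR395b and gave no adjusted p for MIR395c and MIR395f. Over all 74 precursors it called 21 and gave no adjusted p for 12. The DESeq2 fit and the 2-genotype fit also used the filter on low counts, which the members passed only through fiery1. The fiery1 libraries were also the deepest of this length class, and the part of depth in the result was not tested beyond the floors given above.

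Where the tags start shows where RNA ends lay, whether left by cutting or by degradation. The order of the cuts was not tested. In base-to-loop processing the first DCL1 cut releases a 3′ remnant that begins just after the 3′ end of miR395, called here the base-proximal end and counted within 1 nt. A cut first at the loop would leave an end at the 5′ base of miR395, the loop-proximal end. In fiery1 the base-proximal end held 78.7% and 74.4% of the MIR395 counts (mean 76.6% ± 3.03, SD, n = 2), and the loop-proximal end held 0 of 4149 and 0 of 7689. Those zeros allow loop-proximal shares of up to 0.0723% and 0.0390%. The median loop-proximal share was also 0% among other precursors with a 3′-arm mature strand and at least 100 long-tag counts. These were 50 and 59 precursors in the 2 fiery1 libraries. The zeros therefore do not set MIR395 apart. In wild type 10 of 10 counts started at the base-proximal end and 0 at the loop-proximal end, which allows a loop-proximal share of up to 30.0%.

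The members differed in how strictly their ends kept to that site. MIR395f was the most uniform, with all 179 and all 506 fiery1 counts starting exactly at the base-proximal end. MIR395a had 88.1% and 85.7% of its counts there, MIR395b 71.3% and 62.8%, and MIR395c 63.0% and 56.2%. The order f, a, b, c was the same in both fiery1 libraries and the values of MIR395b and MIR395c overlapped between libraries, while those of MIR395f and MIR395a stood apart.

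**Figure D2:**
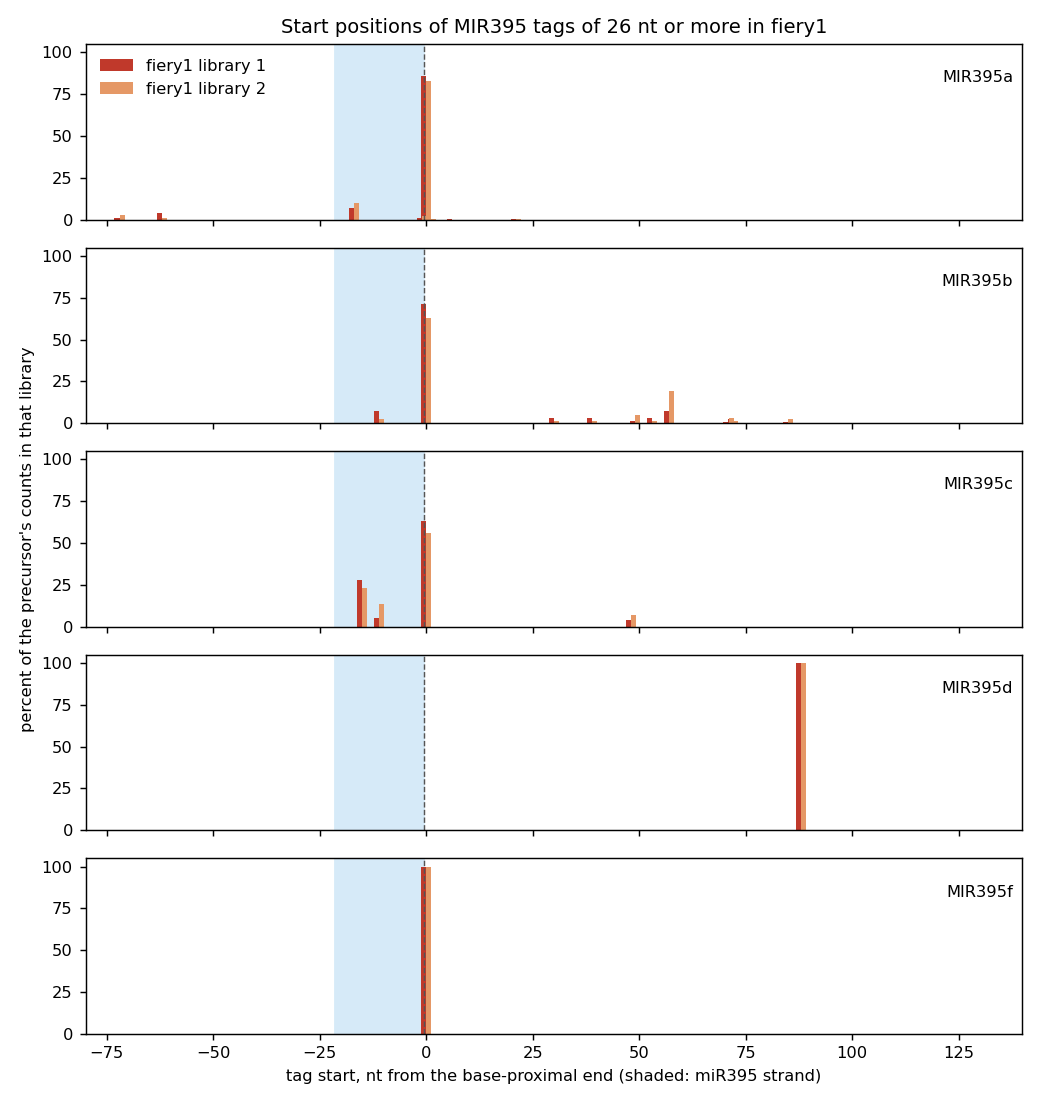
Start positions of tags of 26 nt or more in the 2 fiery1 libraries (colours), as the percent of each precursor's counts (y axis, from 0) against the distance in nt from the base-proximal end (x axis, pairs of bars straddle their position). The main bar of MIR395a, MIR395b, MIR395c and MIR395f stands at 0, the shaded miR395 strand holds further ends in MIR395a, MIR395b and MIR395c, and all 17 counts of MIR395d start 88 nt downstream.

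A second group of ends lay inside the miR395 strand, so that the RNA downstream of them no longer held the whole mature microRNA. They made up 8.24% ± 0.414 (SD, n = 2) of the MIR395 counts in fiery1 and 34.8% ± 2.74 of those of MIR395c. MIR395c tags started at base 7 of miR395, with 80 and 134 counts, and at base 11, with 15 and 78. MIR395b tags started at base 11 as well, with 136 and 75 counts, and MIR395a tags at base 5, with 123 and 324.

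Base 11 was thus shared by MIR395b and MIR395c, while base 5 was used in MIR395a and base 7 in MIR395c, and MIR395f, with the same mature sequence as MIR395b and MIR395c, had none. Outside fiery1 the only count inside a miR395 strand was 1 at base 5 of MIR395a, in a hyl1 library. Among the ends on the 5′ side, MIR395a had 16 and 97 counts starting at hairpin base 12, next to the predicted opposite strand, and 64 and 34 at base 22 within it, together 4.31% ± 0.424 (SD, n = 2) of its counts.

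Ends downstream of the hairpin were mainly a feature of MIR395b in fiery1, at 21.7% and 35.0% of its counts. The largest in both libraries stood 57 nt after the base-proximal end, with 138 and 642 counts. The order of the others differed between the libraries, as at 49 nt, with 19 and 160 counts, and at 53 nt, with 65 and 48. MIR395c had 12 and 41 counts starting 48 nt downstream. MIR395d differed from the rest of the family, because no library had a tag of 26 nt or more at its base-proximal end and its 15 and 2 fiery1 counts all started 88 nt downstream.

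Tested position by position with edgeR, 5 of the 7 MIR395 positions that passed the filter were called higher in fiery1, where 28.9% of all 360 positions were called higher and 1.94% lower, 30.8% in either direction. They were base 5 of miR395 in MIR395a (adjusted p = 0.0085), the position 57 nt downstream in MIR395b (adjusted p = 0.0218), base 7 of miR395 in MIR395c (adjusted p = 7.1e-04), and the base-proximal ends of MIR395c (adjusted p = 0.0052) and MIR395f (adjusted p = 0.0137). All 5 had 0 counts in wild type, and all 7 tested positions passed the filter only through fiery1. Without the filter 0 MIR395 positions were called, so the calls lend no support of their own. The mean CPM of these 5 lay at least 8.73-fold, 14.3-fold, 4.44-fold, 10.4-fold and 13.3-fold above the wild-type floor. For the library pair closest to each other these ratios were 5.11-fold, 5.74-fold, 3.18-fold, 7.57-fold and 7.44-fold. The base-proximal ends of MIR395a and MIR395b, which hold most of the counts, had log2 fold changes of 7.28 and 7.32 and did not pass (adjusted p = 0.0626 and 0.0828). None of the 7 positions passed once any 1 of the 4 libraries was left out.

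The mean base-proximal shares of the ranked MIR395 members in fiery1 ran from 100% down to 59.6%, where those of all ranked precursors ran from 100% to 0%. A base-proximal site could be set from a 3′-arm mature strand for 84 of the 108 precursors. Of these, 54 had at least 100 long-tag counts in both fiery1 libraries and were ranked. MIR395f shared the highest value, 100%, with MIR165b, MIR167c, MIR824 and MIR399a. MIR395a ranked 21, MIR395b 38 and MIR395c 40. The median of the 50 ranked precursors outside the family was 76.2% and 76.9% in the 2 libraries, between the values of MIR395a and MIR395b.

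**Figure D3:**
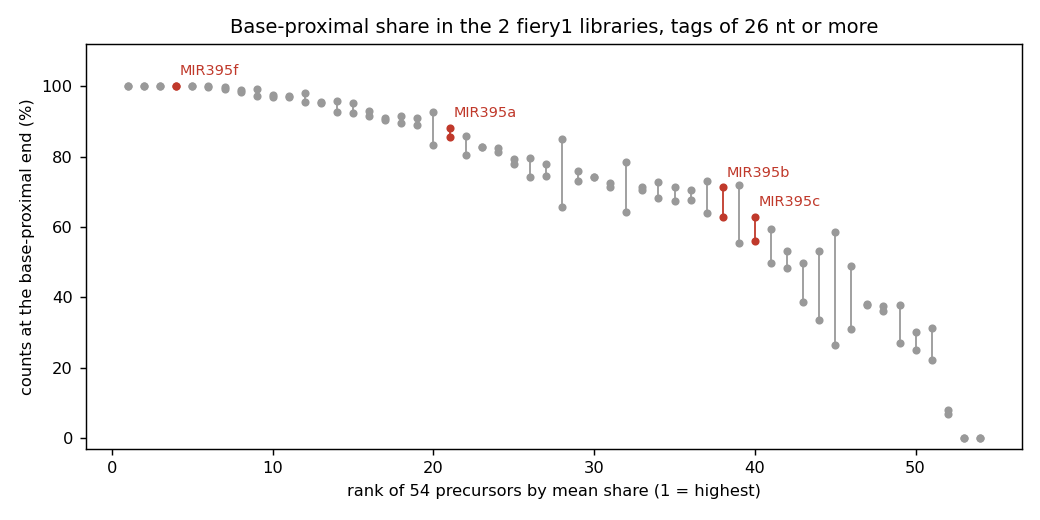
Share of counts at the base-proximal end (y axis, %) for 54 precursors with a 3′-arm mature strand, ranked by their mean (x axis). Points joined by a line are the 2 fiery1 libraries. MIR395f stands at 100%, MIR395a at rank 21, and MIR395b and MIR395c at ranks 38 and 40.

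The hyl1 and se comparisons use the same wild-type libraries as the fiery1 comparison and are not independent of it. Among tags of 26 nt or more, hyl1 had 1 count of MIR395a in each library and none of the other members. The se libraries had 2 and 3 counts of MIR395a, 2 and 2 of MIR395b, 0 and 1 of MIR395c and none of MIR395d or MIR395f. The sums were 30.5 ± 11.8 CPM in hyl1 and 84.5 ± 16.2 CPM in se (SD, n = 2), next to 55.3 CPM in wild type.

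With edgeR no MIR395 precursor passed in hyl1 or se, and 0.0% of the 74 precursors were called in either comparison. At an unadjusted p under 0.05 there were 14 precursors in hyl1 and 16 in se, and DESeq2 called 19 and 22, in neither case a MIR395 member. The ratio of se to wild type was 1.53 for the family, with a counting interval of 0.570 to 4.09. For hyl1 the mean floor of 91.5 CPM was above the wild-type level, so neither a loss nor a moderate gain of these ends was detectable. Of the few ends seen, 7 of 10 in se and 1 of 2 in hyl1 were base-proximal and 0 were loop-proximal.

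Tags of 18 to 25 nt showed no end within the hairpin. All of them started 95 to 140 nt downstream of the base-proximal end, beyond the hairpin, and they ended within 1 nt of a single base per precursor, with 100% of the counts of MIR395a, MIR395b, MIR395c and MIR395f and 98.9% of those of MIR395d. That fixed base lay between 119 and 158 nt downstream of the base-proximal end. No tag exceeded 51 nt, so tags from the base-proximal ends could not reach it. MIR395 held between 0.881% and 3.29% of this length class in every library, so short tags of the family were counted in all 4 genotypes. The primer sequences are not given in the sources used here, so the fixed base could not be matched to a primer. Whether these short tags came from precursor RNA or from primers was not tested.

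MIR395d, almost missing among long tags, held the most short tags in 7 of the 8 libraries. The wild-type libraries had 118 and 48 counts of it, the fiery1 libraries 290 and 284, the hyl1 libraries 6 and 28 and the se libraries 1782 and 5065. That was 50.7% to 62.7% of the short MIR395 tags in the wild-type, fiery1 and se libraries, 31.5% in 1 hyl1 library, where MIR395b held 32.6%, and all 6 counts in the other. MIR395f was the opposite case, with 0 and 1 counts in the wild-type libraries, 4 and 0 in the fiery1 libraries, none in hyl1, and 57 and 83 in the se libraries. Library totals differed widely, so CPM is given as well. MIR395d stood at 4997 and 9362 CPM in wild type and at 6911 and 11826 CPM in se. MIR395f stood at 221 and 194 CPM in se, below the mean wild-type floor of 356 CPM, so no difference was detectable.

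**Figure D4:**
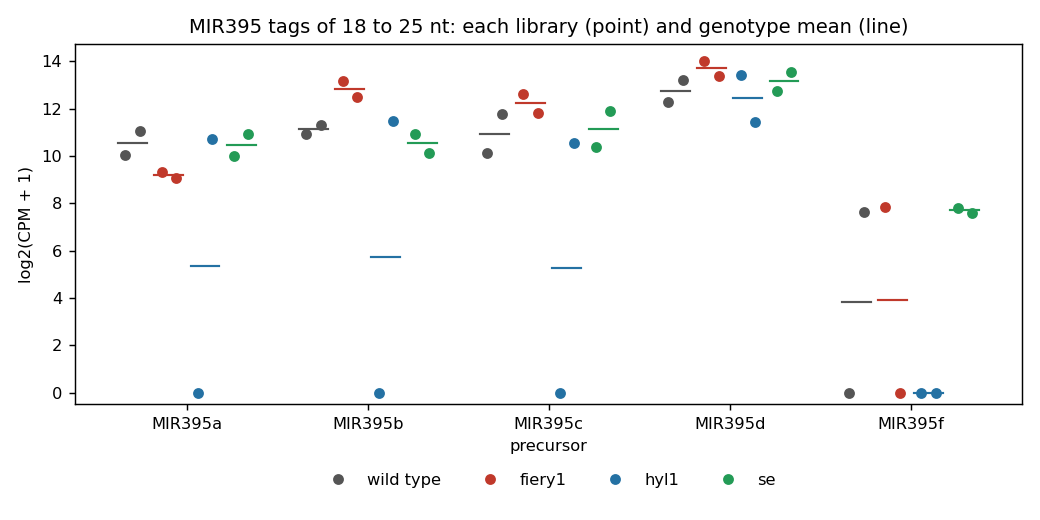
Level of each MIR395 precursor among tags of 18 to 25 nt, as log2(CPM + 1), in the 8 libraries (points, coloured by genotype) with a line at the genotype mean. MIR395d is among the highest in every library, MIR395f is at or near the bottom, and the genotypes lie closer together than among the longer tags. 1 hyl1 library with 545 such counts has only MIR395d.

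The balance of the length classes also set the members apart in fiery1. Short tags were 97.2% ± 2.98 (SD, n = 2) of the MIR395d counts in fiery1, 20.8% ± 9.28 of those of MIR395c, 5.96% ± 2.27 of those of MIR395b, 1.09% ± 1.55 of those of MIR395f and 0.528% ± 0.144 of those of MIR395a. In wild type they were 100% of the MIR395c and MIR395d counts in both libraries, 83.0% ± 13.6 of those of MIR395a and 89.6% ± 11.8 of those of MIR395b. MIR395d was thus mostly short in both genotypes, and MIR395f had only 1 wild-type count to compare. Over all precursors, short tags held 3.70% and 3.23% of the fiery1 libraries, 29.5% and 4.05% of the wild-type ones, and 86.1% and 83.9% of the se ones. The part of this difference between libraries in the shares of the members was not tested.

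With edgeR no short-tag MIR395 precursor passed in fiery1, hyl1 or se, and 0.0% of the 78 precursors tested were called in each comparison. At an unadjusted p under 0.05 there were 17, 8 and 14 precursors, and DESeq2 called 8, 1 and 4, with no MIR395 member. The lowest value was that of MIR395a in fiery1, with 25 and 11 counts in the wild-type libraries, 11 and 14 in the fiery1 libraries and a log2 fold change of -2.40 ± 1.17 (SE, adjusted p = 0.261). MIR395b, MIR395c and MIR395d had log2 fold changes of 0.58, 0.29 and -0.07 in fiery1 with TMM factors. With library totals these were 1.73, 1.14 and 0.94, the median of all precursors moved from 0.29 to 1.05, and MIR395d changed sign, so no direction is given for them.

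The start of the short tags also varied within a member. MIR395b tags that started 138 nt downstream had 0 counts in wild type and hyl1, 22 and 16 in the fiery1 libraries and 145 and 124 in the se libraries. Those that started 140 nt downstream had 44 and 8 counts in the wild-type libraries, 120 and 126 in the fiery1 libraries, 0 and 25 in the hyl1 libraries and 316 and 327 in the se libraries. Neither position passed in any comparison (edgeR adjusted p = 0.165 for fiery1 and 0.145 for se at 138 nt). At 138 nt the values were 1264 and 603 CPM in the fiery1 libraries and 562 and 290 CPM in the se libraries. The zeros stand for floors of 127 and 585 CPM in the wild-type libraries and 5505 and 297 CPM in the hyl1 libraries. Not all fiery1 and se values exceed these floors. Over all precursors 0.0% of the 155 short-tag positions were called for fiery1 or hyl1, and 2.58% for se (0.645% higher and 1.94% lower), and no MIR395 position was among them. Since the end is fixed, these 1-nt to 2-nt shifts change the start and the length of a tag together. Whether they reflect different cuts was not tested.

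Other nutrient-responsive precursors were set beside MIR395 in fiery1, with no test of a difference from it. Of the 12 on the list 8 were tested among tags of 26 nt or more, of the copper families MIR397, MIR398 and MIR408 and the phosphate families MIR399 and MIR827. Of these, 1 was called higher and 1 lower, against 13.5% and 6.76% of all precursors, and their median log2 fold change was -0.49 beside 1.34 over all. By position, 32 of 99 were called higher and 2 lower, against 28.9% and 1.94% of all 360 positions. Their median log2 fold change was 7.33 beside 6.70 over all positions. MIR397a, whose miRNA targets laccases, had 0 counts in wild type and 175 and 491 in fiery1 (edgeR adjusted p = 0.0198), but it passed the filter only through fiery1 and was not called without it (adjusted p = 0.117). MIR399a, whose miRNA targets the phosphate regulator PHO2, fell by 3.81 on the log2 scale (adjusted p = 0.0198), with 1112 and 1582 counts in wild type and 563 and 1501 in the deeper fiery1 libraries. In hyl1 and se 0 of the 8 passed with edgeR, 0 and 3 had an unadjusted p under 0.05, and DESeq2 called 2 in each.

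The precursors whose profile over the 8 libraries was most like the MIR395 sum were MIR162b, MIR390b and MIR447a, each with a Pearson r of 0.985 on log2(CPM + 1) among 77 precursors compared. MIR162b had 75 and 145 counts in fiery1, MIR390b 71 and 107, and MIR447a 84 and 199. All 3 had 0 counts in the 6 other libraries, so the likeness rests on the fiery1 libraries, which also share their greater depth.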

How the data were processed

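The deposited files give raw counts of identical tags with precursor, position and length. Per the labels' protocols, total RNA was ligated with T4 RNA ligase and copied with specific primers. The submitters' processing notes list cutadapt and TAIR10 with no version, and no aligner was given in the sources used here. The 13 blank counts, 1 of them of MIR395, were left out.

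Entries within 5 nt were merged (111 entries to 108 precursors). Tags were matched exactly to TAIR10.1 with Python 3.11.15, and hairpins were folded with RNAfold 2.7.2. Tags of 26 nt or more and of 18 to 25 nt were analysed apart. edgeR 4.0.16 (TMM, filterByExpr minimum count 10, 1 model of 8 libraries) gave Benjamini-Hochberg adjusted p-values over all features, with a threshold of 0.05. The script was tested on simulated data with a smaller spread than these libraries have, so that test does not show how it performs at their spread. Shares carry a tolerance of 1 nt, and intervals are exact at 95%.

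The text names all members, nutrient precursors that passed (at most 4 per comparison), the 3 precursors most like the MIR395 sum, and called or leading cut positions. Members and lists were chosen with earlier results of these data known. Alternatives were DESeq2 1.42.0, other size factors, no filter, fewer libraries, a replicate block, a term for the later sample numbers, and other tags.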

Additional observations from a re-analysis of the deposited data

How the results depend on the processing

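Settings not listed here left a count within 1.5 times the reported value and kept the sign of a member's log2 fold change. For fiery1 and tags of 26 nt or more, the reported calls were 2 MIR395 precursors, 15 of all, 2 nutrient precursors and 5 MIR395 positions. Without the filter these were 0, 5, 1 and 0, and over all tags of 18 nt or more the first 3 were 0, 1 and 0. With only the 2 genotypes they were 4 MIR395 precursors and 40 of all 77 tested. Leaving out 1 library gave 0 MIR395 precursors and positions in each of 4 fits, 0 to 2 of all and 0 to 1 nutrient precursors. Calls of a single member were lost in 14 fits (MIR395c and MIR395f) and gained in 4 (MIR395a and MIR395b), all in this comparison. The cause was not tested. The replicate numbers do not pair the libraries by the labels, and same-numbered libraries correlated between -0.18 and 0.25 (long tags) or -0.26 and 0.29 (short tags). The replicate block gave 0 MIR395 precursors, 0 of all, 0 nutrient precursors and 0 MIR395 positions in fiery1, and among short tags 3, 2 and 2 precursors in fiery1, hyl1 and se and 1 nutrient precursor in hyl1.

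Where 0 precursors were reported, DESeq2 called 19 in hyl1 and 22 in se (2 nutrient precursors each) for long tags, and 8, 1 and 4 in fiery1, hyl1 and se for short tags. Other size factors gave 6 and 1 short-tag calls in fiery1 and se, library totals 7 and 3, no filter 6 and 3 (2 for long tags in se), only the 2 genotypes 1 and 2 (1 for long tags in se), and all tags 1 and 17 (3 nutrient precursors in se). Leaving out 1 library gave 0 to 2 calls in hyl1 and 0 to 1 in se for long tags, and 0 to 2, 0 to 2 and 0 to 6 for short tags.

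Signs changed for members that no test called. Over all tags MIR395a had a log2 fold change of 3.81 in fiery1, 2.26 in se and 0.0010 in hyl1 (there also against the long-tag value), and MIR395b 1.62 in se, in place of the negative short-tag values. MIR395d in fiery1 was 0.71 with DESeq2 size factors in edgeR and with DESeq2, 0.21 without the filter, 0.94 on library totals and 0.42 with the 2 genotypes. The term for later sample numbers gave 0.083 for long-tag MIR395a in hyl1, and -0.23 and -0.42 for short-tag MIR395c and MIR395d in se, and no filter gave -0.35 for long-tag MIR395a in se. With 1 library left out, long-tag MIR395a spanned -1.004 to 0.52 in hyl1 and -0.16 to 0.27 in se. Short-tag values spanned -0.37 to 0.45 for MIR395d in fiery1, -10.40 to 0.17 and -11.03 to 0.31 for MIR395a and MIR395b in hyl1, and -0.89 to 0.34, -0.87 to 0.89 and -0.33 to 0.75 for MIR395a, MIR395c and MIR395d in se.

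The base-proximal share depends on the length class. Over all tags it was 1.38% and 7.14% in the wild-type libraries, 69.2% and 69.5% in the fiery1 libraries and 0.102% and 0.0495% in the se libraries, and over short tags alone 0% in each. Nearly all short tags end near the fixed base, which tags from the base-proximal ends could not reach. That 0% is therefore not a separate result. At the exact position it was 73.3% in fiery1 replicate 2. Wild-type depth limits the long-tag comparison to levels above about 38.9 CPM, and hyl1 to above 91.5 CPM.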

Other observations

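The entry named miR395e held 82 counts of 1 tag in a single se library. That tag matched the genome once, on the MIR395d locus, 114 nt downstream of its base-proximal end, and it ended 7 nt before the fixed base at which the other MIR395d short tags end. No tag in any library matched within 1000 nt of the annotated MIR395e hairpin.

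MIR395a tags that started 98 nt downstream of the base-proximal end, 22 nt long, had 11 counts, all in 1 hyl1 library. The other MIR395a short tags of that library, 6 counts, started 100 nt downstream, as did 838 of the 1180 short MIR395a counts of all libraries. The position was not tested, because it did not pass the filter.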
